A study of Mus musculus with 10 samples.

Results

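A set of genes that restrain the growth kinase complex mTORC1 or mark the removal of damaged mitochondria was followed in mouse colon crypts: Ddit4, Rnf152, Sesn1, Sesn2, Sesn3, Depdc5, Tsc1, Tsc2, Trp53inp1 and Bnip3. They were taken by symbol from a table of 33632 gene IDs, all 10 were found, and all 10 passed the filter on low counts that left 14963 genes. The choice was made with results of the same comparison in view, so the differences between groups below are a description of these libraries and carry no test of their own.

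Crypts are the pits of the colon lining where its stem cells sit. Their bulk RNA was sequenced in 5 libraries labelled SOX21flox and 5 labelled SOX21CKO. The flox mice had the genotype Sox21fl/fl. The CKO mice had Lgr5-EGFP-IRES-CreERT2/+;Sox21fl/fl, a knock-in at the Lgr5 locus whose Cre, active with tamoxifen, can remove the floxed alleles of the transcription factor gene Sox21 only in cells that express Lgr5. Both groups carried the floxed Sox21 alleles and are labelled with a normal diet and a normal liver, and only the CKO mice carried the Lgr5 knock-in. The sources used here give no age, sex or tamoxifen dosing for either group. The comparison addresses what the Cre-carrying genotype does to crypt RNA in animals with a normal liver.

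mTORC1 is a kinase complex on the lysosome that promotes protein synthesis and blocks autophagy when amino acids and growth factors are plentiful. Amino acids switch it on through the Rag GTPases, which the GATOR1 complex turns off, and growth factors switch it on through the GTPase Rheb, which the TSC complex turns off. Cells under stress (low oxygen, DNA damage, scarce amino acids, glucocorticoids) raise transcripts such as Ddit4 and the sestrins, which act on these brakes. In the intestine, mTORC1 activity in crypt cells and their niche responds to feeding and fasting. Mitophagy, the selective autophagy of mitochondria, uses receptors on the outer mitochondrial membrane, of which Bnip3 is one.

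The 3 members with the largest log2 fold changes, Rnf152, Bnip3 and Ddit4, are shown by the 250 bases before the RefSeq gene start. They were also the 3 members whose window held the letters ACGTG, 1 form of the core that hypoxia-inducible factors bind. The other form, GCGTG, was not searched. On either strand it can be read in windows of Ddit4, Bnip3, Sesn1, Depdc5, Tsc1 and Tsc2. Each window below is written 5′ to 3′ on the strand of the gene. Capitals mark ACGTG on either strand or, in Bnip3, the E-box CACGTG, which is its own reverse complement and contains ACGTG.
Ddit4 (GRCm38.p6, chr10:59951771-59952020, minus strand): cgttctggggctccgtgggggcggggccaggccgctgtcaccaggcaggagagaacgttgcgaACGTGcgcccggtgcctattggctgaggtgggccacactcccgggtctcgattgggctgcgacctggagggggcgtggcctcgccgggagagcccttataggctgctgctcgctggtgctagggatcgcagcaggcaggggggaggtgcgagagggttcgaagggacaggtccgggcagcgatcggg
Rnf152 (GRCm38.p6, chr1:105356711-105356960, minus strand): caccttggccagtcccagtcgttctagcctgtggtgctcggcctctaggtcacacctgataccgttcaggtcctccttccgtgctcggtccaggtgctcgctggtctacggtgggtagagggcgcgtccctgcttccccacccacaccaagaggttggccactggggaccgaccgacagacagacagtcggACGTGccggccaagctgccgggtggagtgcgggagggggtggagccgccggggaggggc
Bnip3 (GRCm38.p6, chr7:138909507-138909756, minus strand): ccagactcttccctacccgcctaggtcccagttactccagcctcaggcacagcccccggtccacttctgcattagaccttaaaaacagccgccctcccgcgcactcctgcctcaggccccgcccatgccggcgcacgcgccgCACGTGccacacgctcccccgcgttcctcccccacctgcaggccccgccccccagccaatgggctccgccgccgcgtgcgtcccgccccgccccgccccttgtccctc
In these windows the match began 187 bases before the start of Ddit4, 59 before Rnf152 and 108 before Bnip3. RefSeq windows were found for 9 of the 10 members, 10 windows in all since Sesn1 has 2 starts, and Trp53inp1 had no entry. ACGTG, searched on both strands, was in 3 of the 10 windows and in 16.6% of all 32841 windows of that length. CACGTG was in 1 of the 10 (Bnip3) and in 6.02% of all windows. CCAAT, the letters bound by NF-Y, was in 6 of the 10 windows and in 33.9% of all. The FoxO letters TGTTTAC (3.17% of all windows), the ATF4 letters TGATGNAAT (0.816%), the D-box letters TTATGTAA or TTACGTAA (0.932%) and the palindromic glucocorticoid receptor element (0.0091%), all searched on both strands, were in 0 of the 10. These matches describe letters in short windows, and the motifs were chosen with the values of the members known.

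Counts summed to between 18926634 and 23642415 per library. Mitochondrially encoded genes took 26.5% (flox 1) and 29.3% (flox 4) of the counts in the libraries where they were highest, and between 4.30% and 11.8% in each of the remaining 8. This mitochondrial share averaged 15.4% ± 11.6 over flox libraries and 6.51% ± 3.10 over CKO libraries (SD, n = 5 each, two-sided exact permutation p = 0.167). Without CKO 4, the highest CKO library, the exact permutation p was 0.0476, and without flox 4 the difference shrank from -8.91 to -5.43 percentage points. The Sox21 transcript (ENSMUSG00000061517) averaged 4.04 ± 1.80 CPM (read counts scaled to a common library size) over flox libraries and 5.34 ± 1.94 CPM over CKO libraries (SD, n = 5 each, edgeR adjusted p = 0.577), so the targeted gene was at no lower level under the CKO label and does not check the labels. Which part of the gene is floxed is not stated in the labels. Some CKO libraries also stood apart in cell markers. The 9 fibroblast and smooth muscle markers summed to 119 CPM in CKO 3 and 182 CPM in CKO 5, and to 114 CPM in CKO 4, against 16.7 to 62.7 CPM in flox and 43.4 and 46.7 CPM in CKO 1 and CKO 2. The 10 epithelial markers summed to 31924 to 35246 CPM in flox and 14745 to 30338 CPM in CKO, so every CKO library was below every flox library. The 9 of them other than Muc2, the goblet cell mucin, summed to 12423 CPM in CKO 3 and 9081 CPM in CKO 5, against 15952 to 22626 CPM in the other 8 libraries. Leukocyte markers ran from 17.6 to 32.8 CPM in flox and from 19.3 to 38.1 CPM in CKO, endothelial markers from 7.42 to 10.1 and from 4.22 to 7.43 CPM, and neuron and glia markers from 0.378 to 2.01 and from 0.434 to 1.07 CPM. In all 5 marker lists 0 genes were at 0 in every library. Without Muc2, CKO 1, CKO 2 and CKO 4 lay within the flox range of epithelial markers, so the full separation of the groups depended on Muc2. The part of these marker differences in the values of the members was not tested. Member values are given for all libraries, without flox 1 and flox 4, and without CKO 3 and CKO 5. In bulk samples fewer cells of a type and less RNA per cell cannot be told apart.

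Of the 10 members, 4 were higher in CKO, by 1.47-fold to 1.81-fold: Rnf152, Bnip3, Ddit4 and Trp53inp1. Tsc2 was lower, and Sesn1, Sesn2, Sesn3, Depdc5 and Tsc1 lay close to the flox level. edgeR's quasi-likelihood test called 0 of the 10 members at an adjusted p of 0.05, and 0% of all 14963 genes; without flox 1 and flox 4, and without CKO 3 and CKO 5, it likewise called 0 members and 0% of all genes. At an unadjusted p under 0.05 it gave 5 members, 4 higher and 1 lower, where the share over all genes was 13% (5.05% higher and 7.91% lower). DESeq2 called 3 members, Rnf152, Ddit4 and Bnip3, all higher in CKO, where it called 1.19% of all genes (0.401% higher and 0.789% lower). Without flox 1 and flox 4 DESeq2 called Rnf152 and Bnip3, where it called 0.454% of all genes (0.224% higher and 0.23% lower). With quality weights, voom in limma called Ddit4 and Rnf152, where it called 0.294% of all genes (0.1% higher and 0.194% lower). The groups did not overlap in 1 member with CKO above (0.922% of all genes) and in 0 members with CKO below (1.26%), and without flox 1 and flox 4 CKO was above in 2 members (2.09%). The members were picked from this contrast, so nothing is read from these shares. The median log2 fold change of CKO over flox was 0.15 over the 10 members and 0.0010 over all genes tested.

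**Figure D1:**
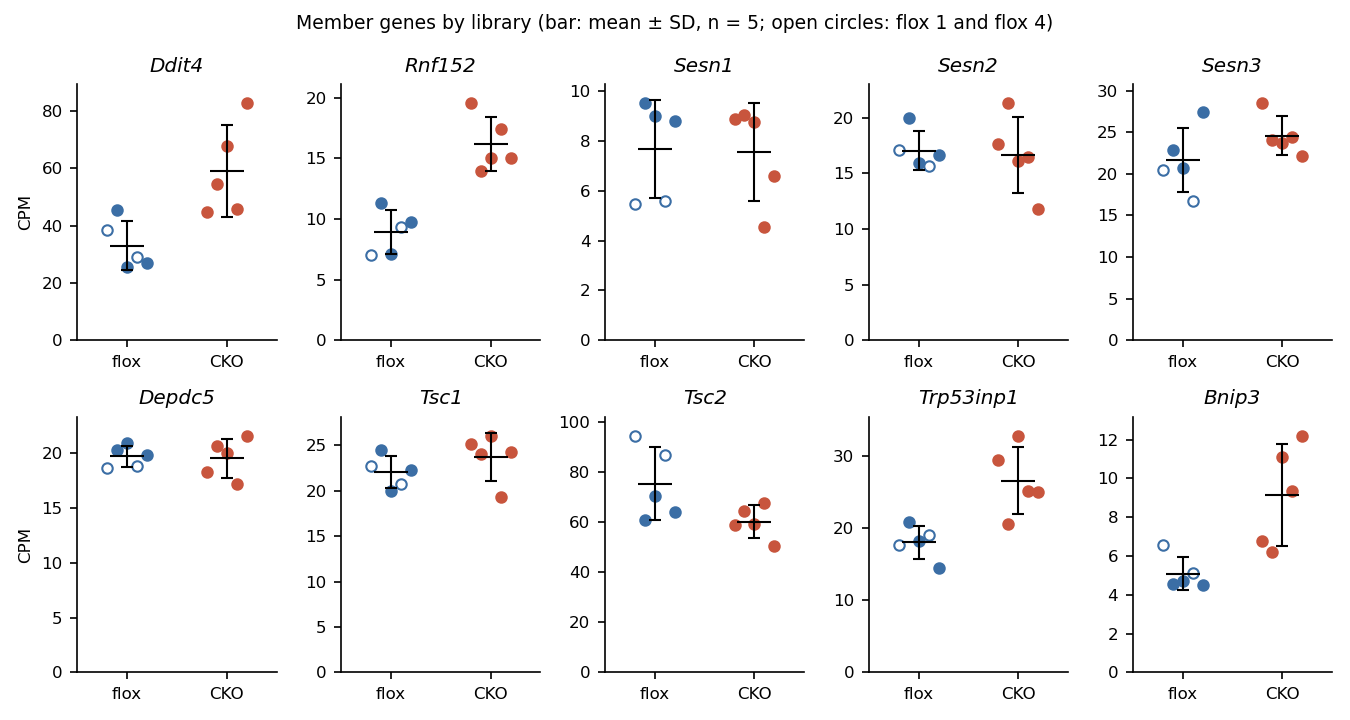
Normalized expression (CPM, vertical axes from 0) of the 10 members in each library, with flox in blue and CKO in red, open circles for flox 1 and flox 4, and bars for mean ± SD (n = 5). On this scale Rnf152 is the member whose groups do not overlap (at most 11.3 CPM in flox, at least 13.9 CPM in CKO). The lowest CKO values of Ddit4, Trp53inp1 and Bnip3 fall within the flox range.

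Rnf152 (ENSMUSG00000047496) encodes a lysosomal ubiquitin ligase that tags the Rag GTPase RagA and so favours its binding to GATOR1. Its level was 7.04, 11.3, 7.13, 9.37 and 9.78 CPM in flox 1 to 5 and 19.5, 13.9, 15.0, 17.4 and 15.0 CPM in CKO 1 to 5. Every CKO library was above every flox library, and CKO 1 was the highest. The means were 8.92 ± 1.82 CPM in flox and 16.2 ± 2.26 CPM in CKO (SD, n = 5 each), a ratio of 1.81 and a log2 fold change of 0.85 ± 0.17 (SE). The log2 fold change was 0.79 ± 0.18 without flox 1 and flox 4 and 0.93 ± 0.20 without CKO 3 and CKO 5. CKO 4, with 114 CPM of fibroblast and muscle markers, stayed in that fit, and the part of cell makeup in the difference was not tested.

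Ddit4 (ENSMUSG00000020108), also known as REDD1, encodes a short-lived protein that restores the activity of the TSC complex in low oxygen, after DNA damage and under glucocorticoids. It was at 38.4, 45.3, 25.4, 28.9 and 26.9 CPM in flox 1 to 5 and at 44.8, 54.6, 67.7, 45.8 and 82.6 CPM in CKO 1 to 5. Flox 2 lay just above CKO 1, the other 4 CKO libraries were above all flox libraries, and the highest values were in CKO 5 and CKO 3. The means were 33.0 ± 8.54 and 59.1 ± 16.04 CPM (SD, n = 5 each), a ratio of 1.79 and a log2 fold change of 0.84 ± 0.21 (SE). It was 0.87 ± 0.25 without flox 1 and flox 4. Without CKO 3 and CKO 5, which had the most fibroblast and muscle marker RNA and the least epithelial marker RNA, it was 0.56 ± 0.20, and the part of these cells in the difference was not tested.

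The 3 sestrins bind GATOR2 and restrain mTORC1, with Sesn1 and Sesn2 doing so when leucine is scarce. Sesn1 and Sesn2 are known as p53 targets and Sesn3 as a FoxO target. Sesn1 (ENSMUSG00000038332) was at 5.46, 9.52, 9.002, 5.59 and 8.82 CPM in flox 1 to 5 and 8.88, 9.05, 8.75, 4.55 and 6.62 CPM in CKO 1 to 5. Its low flox values were those of flox 1 and flox 4, which have the high mitochondrial share, and the lowest value of all was in CKO 4. The log2 fold change was -0.03 ± 0.24 (SE) over all libraries and -0.26 ± 0.21 without flox 1 and flox 4. Sesn2 (ENSMUSG00000028893) ran from 15.6 to 19.95 CPM (median 16.6) in flox and from 11.8 to 21.3 CPM (median 16.5) in CKO, with a log2 fold change of -0.03 ± 0.15 (SE). Both ends of its range were CKO libraries, CKO 5 and CKO 2. Sesn3 (ENSMUSG00000032009) ran from 16.8 to 27.4 CPM (median 20.7) in flox and from 22.2 to 28.4 CPM (median 24.1) in CKO, a log2 fold change of 0.18 ± 0.14 (SE). It was 0.06 ± 0.13 without flox 1 and flox 4, both of which lay below the other 3 flox libraries for this gene.

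Of the fixed subunits of the brakes, Depdc5 and Tsc1 lay close to the flox level. Depdc5 (ENSMUSG00000037426) is the GATOR1 subunit that contacts the Rag GTPases. It ran from 18.7 to 20.99 CPM in flox and from 17.2 to 21.6 CPM in CKO, with a log2 fold change of -0.01 ± 0.11 (SE), and its 10 libraries spanned the narrowest range of the members. Tsc1 (ENSMUSG00000026812) encodes hamartin, which stabilizes the TSC complex. It ran from 19.9 to 24.5 CPM (median 22.3) in flox and from 19.2 to 26.1 CPM (median 24.3) in CKO, with a log2 fold change of 0.11 ± 0.12 (SE).

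Tsc2 (ENSMUSG00000002496), which encodes tuberin, the subunit that turns Rheb off, did not follow Tsc1. It was at 94.6, 61.0, 70.6, 87.0 and 64.2 CPM in flox 1 to 5 and at 58.8, 64.4, 59.4, 67.8 and 50.6 CPM in CKO 1 to 5. The 2 highest values were those of flox 1 and flox 4, while flox 2 and flox 5 lay within the CKO range and 3 CKO libraries were below all flox libraries. The means were 75.5 ± 14.7 and 60.2 ± 6.54 CPM (SD, n = 5 each), which gives -0.33 ± 0.14 (SE) for the log2 fold change. Without flox 1 and flox 4 it was -0.11 ± 0.12. Before scaling, flox 1 and flox 4 had the lowest Tsc2 counts, 1196 and 1152. Their scaling factors (trimmed mean of M values) were 0.585 and 0.605, against 0.965 to 1.28 in the other libraries. With a total without mitochondrial genes in place of this scaling, the log2 fold change was -0.04 ± 0.12 (SE). The median of all genes was then 0.24. The part of the mitochondrial share or of the scaling in the difference was not tested.

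Of the mitophagy and autophagy members, Bnip3 (ENSMUSG00000078566) encodes a receptor of the outer mitochondrial membrane that binds LC3-type proteins, inhibits Rheb and is a known target of hypoxia-inducible and FoxO factors. It was at 6.57, 4.54, 4.72, 5.14 and 4.50 CPM in flox 1 to 5 and at 6.78, 6.19, 11.1, 9.38 and 12.2 CPM in CKO 1 to 5. Flox 1 lay above CKO 2 in CPM, an order that depends on the scaling. The count was 83 in flox 1 and 171 in CKO 2, and the deposited FPKM were 2.62 and 5.99. The 3 highest values in CPM were in CKO 5, CKO 3 and CKO 4, the libraries with the most fibroblast and muscle marker RNA. The means were 5.09 ± 0.861 and 9.13 ± 2.63 CPM (SD, n = 5 each), a ratio of 1.80 and a log2 fold change of 0.85 ± 0.22 (SE). It was 1.003 ± 0.25 without flox 1 and flox 4, where the other 3 flox libraries all lay below the lowest CKO library, and 0.56 ± 0.21 without CKO 3 and CKO 5. The part of the fibroblast and muscle cells in the difference was not tested.

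Trp53inp1 (ENSMUSG00000028211) encodes a p53-induced protein that enters autophagosomes and takes part in mitophagy. It was at 17.7, 20.8, 18.2, 19.0 and 14.5 CPM in flox 1 to 5 and at 29.4, 20.6, 32.8, 25.1 and 25.0 CPM in CKO 1 to 5. CKO 2 lay just under flox 2, and the other 4 CKO libraries were above all flox libraries. The means were 18.05 ± 2.28 and 26.6 ± 4.67 CPM (SD, n = 5 each), a ratio of 1.47 and a log2 fold change of 0.56 ± 0.15 (SE). It was 0.58 ± 0.17 without flox 1 and flox 4 and 0.47 ± 0.17 without CKO 3 and CKO 5. DESeq2 gave it an adjusted p of 0.0565.

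**Figure D2:**
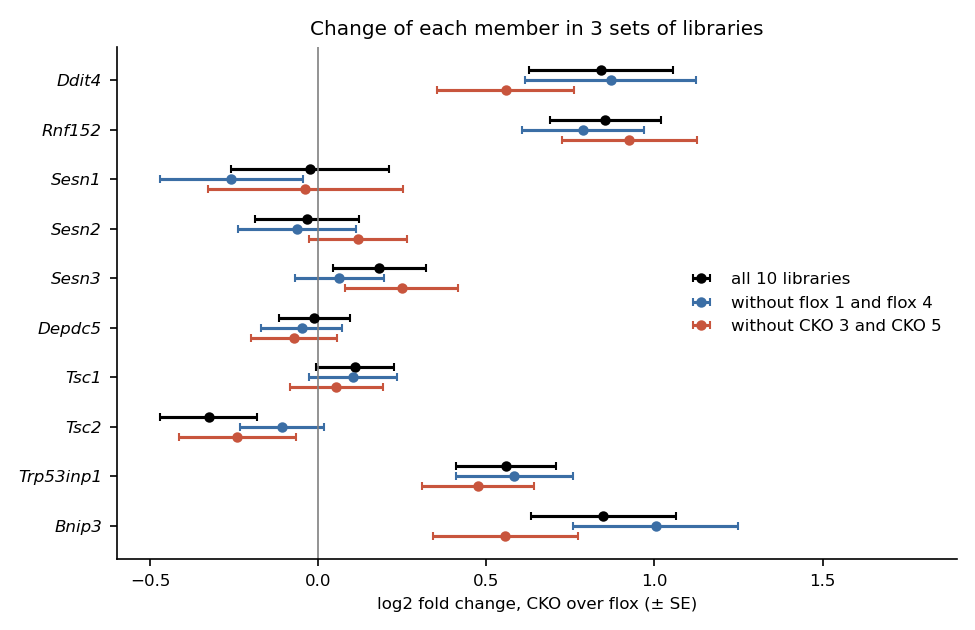
Log2 fold change of CKO over flox with its SE (horizontal axis) for each member, over all 10 libraries (black), without flox 1 and flox 4 (blue) and without CKO 3 and CKO 5 (red). Rnf152 stays between 0.79 and 0.93, Ddit4 and Bnip3 drop to 0.56 without CKO 3 and CKO 5, and Tsc2 moves from -0.33 to -0.11 without flox 1 and flox 4.

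**Figure D3:**
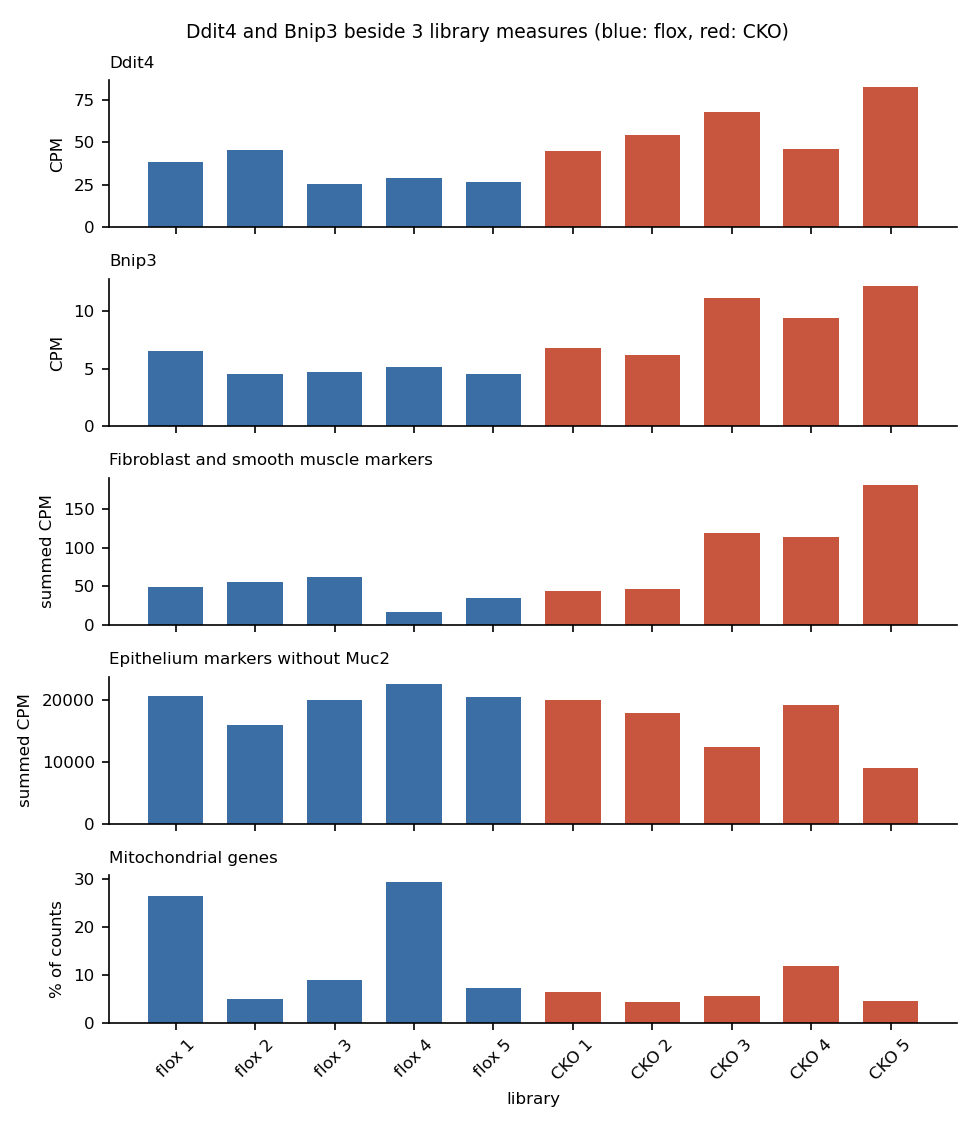
Bars, all from 0, give Ddit4 and Bnip3 (CPM), the summed CPM of 9 fibroblast and smooth muscle markers, the summed CPM of 9 epithelial markers without Muc2, and the percent of counts on mitochondrial genes in each library (flox blue, CKO red). CKO 5 and CKO 3 have the 2 highest bars for Ddit4, Bnip3 and the fibroblast markers and the 2 lowest for the epithelial markers, while the mitochondrial share is highest in flox 1 and flox 4.

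Levels of different genes were compared per length, as CPM per kilobase of merged exons in the GENCODE M21 annotation, over 10 libraries. Ddit4 had the highest level of the 10 members, 26.2 ± 10.4 CPM per kilobase (SD), and its lowest library was above the highest library of Tsc2, the next gene, at 7.05 ± 1.39. Sesn2 followed at 4.85 ± 0.733, Trp53inp1 at 3.45 ± 0.877 and Bnip3 at 3.14 ± 1.24. Tsc1 (1.93), Sesn1 (1.91), Depdc5 (1.67), Sesn3 (1.51) and Rnf152 (1.47 CPM per kilobase) were lowest. From Tsc2 downward each gene overlapped the next in its range over libraries, so neighbours in this order are not separated. More distant genes were: the lowest library of Tsc2 (5.26) was above the highest of Trp53inp1 (5.07 CPM per kilobase) and of each of the 5 genes at the low end. Within the sestrins, Sesn2 was the most abundant per length, and its lowest library (3.40) was above the highest of Sesn1 (2.39) and of Sesn3 (1.86 CPM per kilobase).

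The deposited FPKM values also put Ddit4 (34.6 ± 19.8 FPKM) and Tsc2 (29.7 ± 5.59) first and Rnf152 (1.65 ± 0.767) last, but put Depdc5 next, at 7.12 ± 3.38 FPKM (SD, n = 10 each). For Depdc5 the FPKM ran from 2.60 in flox 1 to 12.4 in flox 2 where its CPM was 18.7 and 20.3. These CPM rest on scaled library sizes, so part of that gap is the scaling. Its counts were 236 of 21626459 in flox 1 and 571 of 23407565 in flox 2. If FPKM were a count over a fixed length and total, the ratio of FPKM to the share of counts would be constant for a gene. It was within a factor of 1.02 for Ddit4 and Rnf152 and 1.01 for Sesn2, but spanned 2.29 for Tsc2, 2.13 for Depdc5, 2.03 for Sesn3 and 1.91 for Tsc1. The median factor over 9896 genes with more than 50 counts in every library was 1.14 and the 90th percentile was 1.71.

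**Figure D4:**
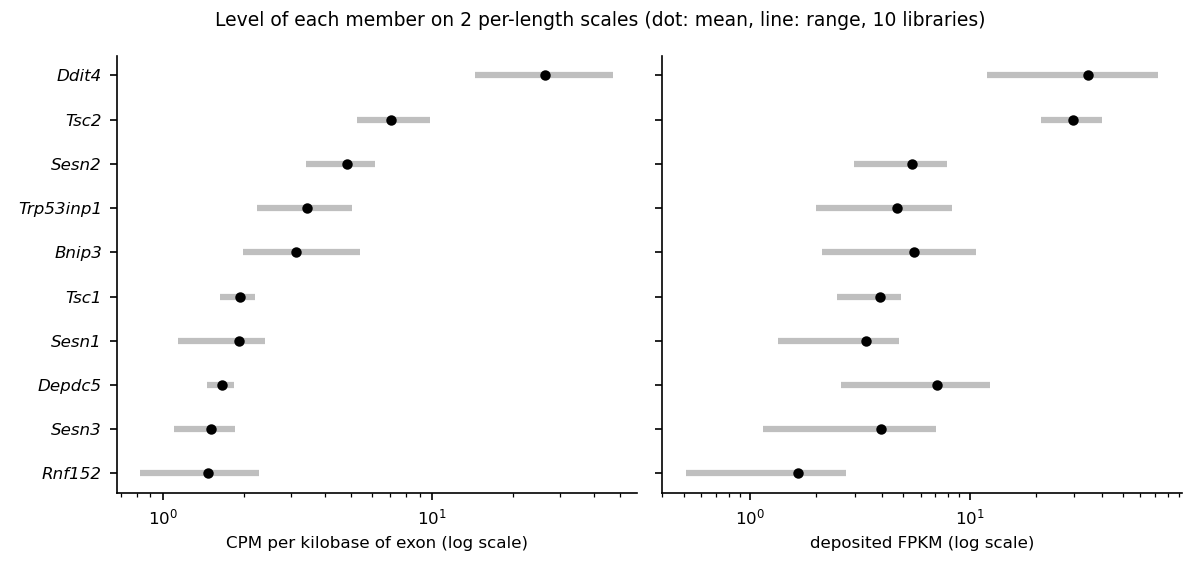
Mean (dot) and range over 10 libraries (line) of each member on a log axis, as CPM per kilobase of exon (left) and as the deposited FPKM (right). Ddit4 is highest on both scales, and Depdc5 has rank 8 of 10 on the left and rank 3 on the right.

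Whether the members vary together from library to library was examined with group means removed, which leaves out the contrast used to choose them. Flox 1 and flox 4 stand apart, so the other 8 libraries were used. Over the 45 pairs, Pearson's r ran from -0.82 to 0.80 with a median of 0.08, 24 pairs were positive and 21 negative. After adjustment over the 45 pairs 0 passed for Pearson's r and 0 for Spearman's rho (two-sided exact permutation within groups, smallest adjusted p = 0.312), while 3 pairs had an unadjusted p under 0.05. The strongest was between Sesn2 and Bnip3, with r = -0.82 (exact permutation p = 0.00694) and rho = -0.69 (exact permutation p = 0.0597). Without the 2 libraries farthest from the median of Sesn2, r was -0.39. Leaving out its most extreme values narrows the range of Sesn2, which by itself can lower r. This step therefore cannot show whether the relation rests on those libraries. The other 2 pairs were Sesn1 with Tsc1 (r = 0.80, rho = 0.52, exact permutation p = 0.0403 and 0.165) and Ddit4 with Tsc2 (r = -0.76, rho = -0.55, exact permutation p = 0.0431 and 0.203), for which r without the 2 farthest libraries was 0.52 and -0.31.

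Genes whose levels followed a member most closely were ranked by Pearson's r of log2 CPM with group means removed, over the 10 libraries and among 8292 named protein-coding genes with a mean of at least 10 CPM. For Ddit4 they were Lipt2 (r = 0.94), Rfc1 (0.92) and Trim46 (0.92). For Rnf152 they were Stk3 (r = 0.94), Zfand5 (0.93) and Cfl2 (0.92). For Bnip3 they were Anxa5 (r = 0.96), Adi1 (0.93) and Rps3a1 (0.91). Without flox 1 and flox 4 these values were between 0.93 and 0.98 over 8 libraries. The libraries are shared by all these genes, and the highest of 8292 values is large by selection, so they only describe likeness. Between groups their log2 fold changes ran from -0.07 for Stk3 to 0.56 for Cfl2, and 0 of these genes passed edgeR's adjusted threshold.

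The rest of the pathway was read from 13 lists of genes that are not members, with 218 entries of which 211 were tested. edgeR called 0 of the 211, with 14 higher and 14 lower at an unadjusted p under 0.05 (13.3%, against 13% of all genes). DESeq2 called 3 of them: Eef2k and Foxo3 higher and Asns lower, 1.42% against 1.19% of all genes. Without flox 1 and flox 4 Foxo3 was still called (DESeq2 adjusted p = 0.00551), while Eef2k (0.276) and Asns (0.101) were not. Pmaip1, a p53-induced gene of cell death, was called there (log2 fold change 1.02, DESeq2 adjusted p = 0.000223) and is named because of that value. Over all 10 libraries its log2 fold change was 0.54 ± 0.27 (SE, edgeR adjusted p = 0.396), and DESeq2 did not call it. The median log2 fold change of the 211 was 0.0031.

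In the machinery around the members the list medians lay between -0.14 and 0.09. The GATOR, KICSTOR and amino acid sensor genes, which pass on amino acid supply, were higher in 5 and lower in 8 of 13 tested (median log2 fold change -0.14), and the smallest p belonged to Castor2, related to the arginine sensor Castor1 (-1.001 ± 0.36 SE, -0.49 without flox 1 and flox 4), and Wdr24 of GATOR2 (-0.35, and -0.18 without them). Rag GTPase, Ragulator and folliculin genes were higher in 6 and lower in 5 of 11 (median 0.09), and in 10 and 1 without flox 1 and flox 4 (median 0.09). Without CKO 3 and CKO 5 the median was 0.02. Fnip2, a folliculin partner, stood at 0.53 (0.34 without CKO 3 and CKO 5) and Lamtor1, a Ragulator subunit, at -0.34 (0.0048 without flox 1 and flox 4). In the TSC and growth factor arm 8 were higher and 4 lower of 12 (median 0.07). Without flox 1 and flox 4 the split was 6 and 6 and the median turned to -0.01, and without CKO 3 and CKO 5 the median was 0.18. The smallest p belonged to Rheb, the GTPase that switches mTORC1 on, and the kinase gene Akt2. These 2 stood at 0.43 and -0.36, and at 0.31 and -0.19 without flox 1 and flox 4. AMPK and LKB1 genes, which sense energy, were higher in 4 and lower in 8 of 12 (median -0.08, and -0.05 without CKO 3 and CKO 5). The AMPK subunits Prkab1 and Prkab2 stood at -0.26 and 0.74, at -0.12 and 0.40 without CKO 3 and CKO 5, and Prkab2 at 0.47 without flox 1 and flox 4.

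mTOR complex subunits were higher in 3 and lower in 8 of 11 (median -0.06). The direction turned without flox 1 and flox 4, to 6 higher and 5 lower with a median of 0.02, and without CKO 3 and CKO 5 the median was -0.02. In this list the smallest p were those of Tti1, an assembly factor, at 0.51 and Mlst8, a shared subunit, at -0.29. Without flox 1 and flox 4 these 2 stood at 0.29 and -0.07. Substrates and outputs of mTORC1 were higher in 6 and lower in 11 of 17 (median -0.10), and in 10 and 7 without flox 1 and flox 4 (median 0.01). Among them Eef2k, the kinase that slows translation elongation and is held back by mTORC1 signalling, averaged 66.2 ± 1.67 CPM over flox and 84.9 ± 8.25 CPM over CKO libraries (SD, n = 5 each). Its log2 fold change was 0.36 ± 0.10 (SE, edgeR adjusted p = 0.332, DESeq2 adjusted p = 0.0272). Rps6kb2, an S6 kinase gene, stood at -0.58 (-0.26 without flox 1 and flox 4).

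Mitophagy genes other than Bnip3 were higher in 11 and lower in 12 of 23 (median -0.0036, and 0.06 without CKO 3 and CKO 5). Mul1, a mitochondrial ubiquitin ligase, stood at -0.26, and at -0.17 without flox 1 and flox 4 and -0.14 without CKO 3 and CKO 5. Fkbp8, a receptor of the outer membrane, stood at -0.31, and at -0.02 and -0.20 in those fits. Core autophagy genes were higher in 14 and lower in 16 of 30 (median -0.02), and in 17 and 13 without flox 1 and flox 4 (median 0.03), with Atg13 of the ULK complex at -0.35 and Atg4c, an LC3 protease, at 0.36. The members Bnip3 and Trp53inp1 stood at 0.85 and 0.56. Both were picked from this contrast, so nothing is read from setting them beside these medians.

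Lists of stress pathways known to induce members had medians from -0.30 to 0.22. FoxO factors and targets were higher in 13 and lower in 4 of 17 (median 0.21, and 0.10 without flox 1 and flox 4). In that list Foxo3, the transcription factor, averaged 54.9 ± 3.43 CPM over flox and 80.7 ± 8.81 CPM over CKO libraries (log2 fold change 0.56 ± 0.11 SE, edgeR adjusted p = 0.174). Fbxo32, a muscle ubiquitin ligase, stood at 1.07 ± 0.31 (SE), and at 0.44 without CKO 3 and CKO 5. Glucocorticoid targets were higher in 9 and lower in 1 of 10 (median 0.22), with the kinase gene Sgk1 at 66.6 ± 12.7 and 111 ± 33.2 CPM (0.74 ± 0.21 SE) and Zbtb16 at 1.39, from 0.473 to 1.23 CPM, and at 0.68 without CKO 3 and CKO 5. p53 targets were higher in 13 and lower in 5 of 18 (median 0.17), with Btg2, an antiproliferative gene, at 0.38 and Zmat3 at 0.27. Hypoxia targets were higher in 11 and lower in 6 of 17 (median 0.15, and 0.09 without flox 1 and flox 4). There Egln3, an oxygen-sensing prolyl hydroxylase gene induced by low oxygen, was lower (-0.80 ± 0.29 SE) while Vegfa, the vascular growth factor, was higher (0.63 ± 0.24 SE, and 0.32 without flox 1 and flox 4).

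ATF4 targets, the genes of the amino acid stress response, were mostly lower, with 4 higher and 16 lower of 20 tested and a median of -0.30. The median was -0.28 without flox 1 and flox 4 and -0.10 without CKO 3 and CKO 5. Asns, asparagine synthetase, averaged 47.9 ± 4.06 CPM over flox and 31.2 ± 4.48 CPM over CKO libraries (log2 fold change -0.62 ± 0.12 SE, edgeR adjusted p = 0.174, DESeq2 adjusted p = 0.00121). Nupr1, a stress-response regulator, stood at -1.17 ± 0.39 (SE), and at -0.51 without flox 1 and flox 4. Sesn2 and Ddit4 are also known ATF4 targets, and stood at -0.03 and 0.84. No list was tested as a set.

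**Figure D5:**
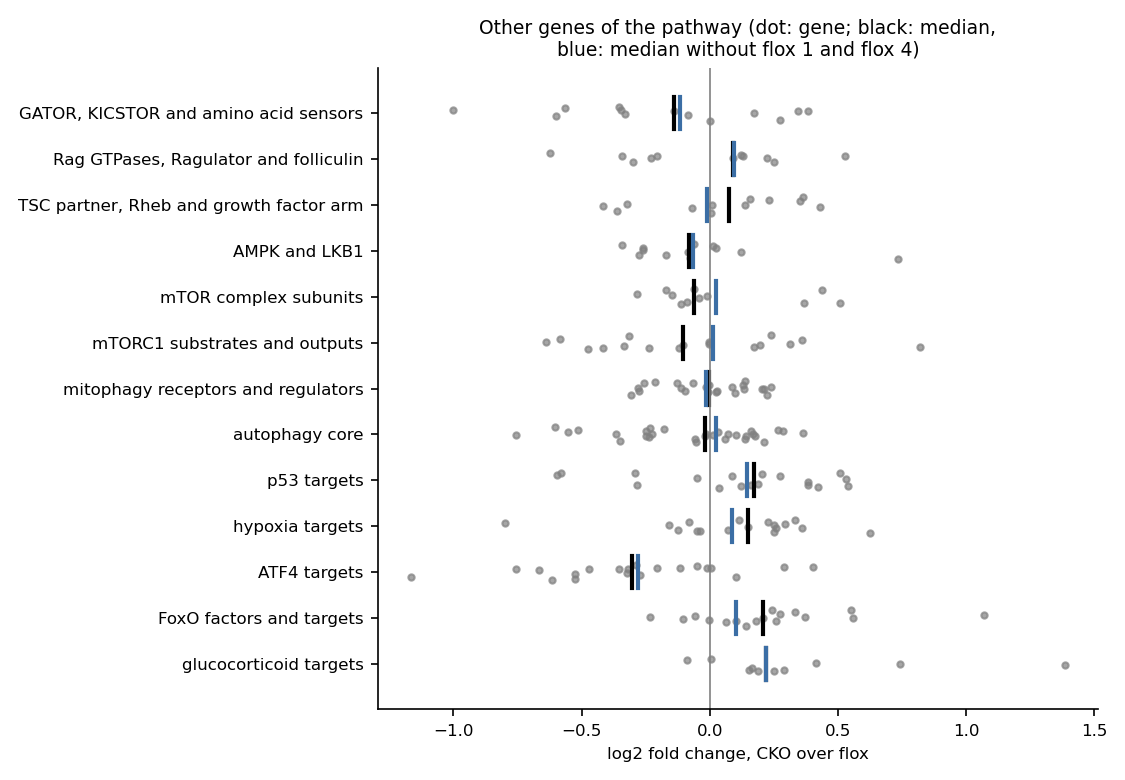
Log2 fold change of CKO over flox (horizontal axis) of each tested non-member gene (grey dots) in 13 lists, with the median over all libraries (black) and without flox 1 and flox 4 (blue). The mitophagy and autophagy medians lie at -0.0036 and -0.02, and the ATF4 target median is the lowest at -0.30.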

How the data were processed

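Gene expression was measured by RNA sequencing of colon crypts in 10 libraries, 5 per group, with groups and replicate numbers taken from the sample titles. Libraries were made with a TruSeq kit after mRNA enrichment, per the labels' protocols, and fastp and HISAT2 are the tools named, per the submitters' processing notes. The genome build, annotation, counter and strandedness are, for these files, not given in the sources used here. Both tables were deposited by the authors, one of whole-number counts per Ensembl gene ID and another of FPKM, with 1 column per library. The labels do not say that libraries are separate animals, so p-values measure the spread between libraries.

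Symbols came from GENCODE M21 (26095 of 33632 gene IDs matched). Counts were filtered with filterByExpr, scaled by trimmed mean of M values and tested by edgeR 4.0.16 (R 4.3.3; estimateDisp, robust glmQLFit, glmQLFTest) with group as the only term and Benjamini-Hochberg adjustment over 14963 genes, threshold 0.05. Log2 fold changes are CKO over flox. CPM were computed on the scaled library sizes. Named pathway genes are the 2 with the smallest p in each list where 0 passed. The members, lists and excluded libraries were chosen with earlier results of these data known. Alternatives were other scalings, DESeq2 1.42.0, limma 3.58.1 (voom without and with quality weights, log2(FPKM + 1) and log2(FPKM + 0.1)), other filters (none, or at least 1 CPM in 5 libraries), no robust fit, a replicate block, the mitochondrial share as covariate, and left-out libraries; the fit without CKO 3 and CKO 5 and DESeq2 without flox 1 and flox 4 were chosen after seeing the data. Genes were ranked for likeness among protein-coding genes without predicted names. Log2 CPM for correlations used a prior count of 2. The edgeR procedure was also run on simulated counts, which lacked the high mitochondrial share of flox 1 and flox 4. That run does not show how well the procedure fits these libraries. Genes with close copies or antisense partners may share reads, which was not measured. Promoter windows are from RefSeq on GRCm38.p6.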

Additional observations from a re-analysis of the deposited data

How the results depend on the processing

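Ddit4, Rnf152, Trp53inp1, Bnip3, Sesn3 and Tsc1 were higher and Tsc2 lower in CKO in all 25 fits that start from counts, with ranges of 0.56 to 1.10, 0.78 to 1.07, 0.47 to 0.81, 0.56 to 1.14, 0.06 to 0.40, 0.05 to 0.36 and -0.39 to -0.04 on the log2 scale, while Sesn1, Sesn2 and Depdc5 were higher in 7, 5 and 6 of the 25. Without mitochondrial genes in the total the median of all genes was 0.24, with log2(FPKM + 1) 0.30 and with log2(FPKM + 0.1) 0.41. Under these the median of the members was 0.38, 0.58 and 0.73, and with the mitochondrial share as covariate 0.057; the FPKM medians lie between Depdc5 and Sesn3, members whose FPKM did not keep a fixed ratio to counts. Relative to the median of all genes, Ddit4, Rnf152, Trp53inp1 and Bnip3 were at 0.86, 0.83, 0.57 and 0.89 with the first of these totals. Genes called numbered 178 with DESeq2 (60 higher, 118 lower), 71 with DESeq2 without flox 1 and flox 4 (35 higher, 36 lower), 44 with quality weights (15 higher, 29 lower), 3 with no filter, 1 without mitochondrial genes in the total, 1 with the covariate, and 0 to 2 with 1 library left out (2 without flox 2, 0 otherwise). Members called numbered 3 with DESeq2, 2 with DESeq2 without flox 1 and flox 4 (Rnf152 and Bnip3) and 2 with quality weights (Ddit4 and Rnf152), and 0 in the other fits; pathway genes called numbered 3, 2 (Foxo3 and Pmaip1) and 1 (Foxo3) in those fits. With 1 library left out the CKO minus flox difference in mitochondrial share ran from -11.5 to -5.43 percentage points, and without CKO 4 it was -10.2 (two-sided exact permutation p = 0.0476). On log2(FPKM + 1) and log2(FPKM + 0.1), which carry the shift above, the log2 fold change turned positive for Wdr24 (0.0755 and 0.0815), Lamtor1 (0.15 and 0.15), Akt2 (0.0769 and 0.0811), Prkab1 (0.18 and 0.18), Mlst8 (0.10 and 0.11), Mul1 (0.16 and 0.17), Fkbp8 (0.17 and 0.17) and Atg13 (0.0804 and 0.0883). Lamtor1 was at 0.034 with the covariate and 0.0048 without flox 1 and flox 4, and without mitochondrial genes in the total Mlst8 was at 0.0044 and Mul1 at 0.0031. With the replicate number as a block 0 genes were called; same-numbered libraries correlated between -0.30 and 0.40, over 0.1 in 2 of 5 pairs, and 2 of 10 libraries correlated best with their own number, so the numbers were not treated as pairs. Counts behind the shallowest members ran from 68 to 345 for Bnip3 and from 69 to 268 for Sesn1, which limits how small a difference they can show.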
